A study of Mus musculus with 9 samples.

Results

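Collagens, laminins and integrins make up much of the extracellular matrix and of the receptors by which cells hold on to it. Here they are all mouse genes whose symbol begins as that of a collagen chain, or is that of a laminin chain or an integrin subunit, each read from the probe set with its highest mean level. The names matched 84 of 22180 genes on the array, of which 49 exceeded the array's median level in 3 or more of the 9 arrays and were tested. The tested genes are 26 of 44 collagen chains, 6 of 10 laminin chains, 9 of 17 integrin alpha subunits and 5 of 8 integrin beta subunits. The other 3 tested genes, Itgb1bp1, Itgb1bp2 and Itgb3bp, match only by their letters and encode proteins that are no integrin subunits. The remaining 35 genes lay near or below the array median and are accounted for at the end.

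RNA was read on 9 Affymetrix arrays, 3 per culture, from the embryonic cortex of wild-type CD1 mice, an outbred strain. Neurons came from embryos of day 16 and grew for 5 days altogether, though another label has 4 days. Precursors came from embryos of day 13 and grew for 1 day. For the co-culture, day 13 precursors were put on neurons that had already grown for 4 days, and both were kept together for 1 day, so that its RNA comes from both. All cultures thus share strain and tissue, while age at dissection and time in the dish go with the cell type and cannot be told apart from it. The labels call the 3 arrays of a group biological replicates; whether equal numbers share a litter or a day, they do not say. In bulk RNA, fewer cells of a type and less RNA per cell cannot be told apart.

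The marker genes fit the labels in part. All 10 radial precursor markers were lower in neurons than in precursors, with a median log2 difference of -1.38, and 7 of 9 neuron markers were higher. The other 2 neuron markers, Tbr1 and Bcl11b, transcription factors of deep-layer neurons, were lower in neurons. The junction gene Cdh5, a marker of vessels, was at 6.89, 7.00 and 7.02 in neurons and 8.25, 8.07 and 8.23 in precursors. In the co-culture it was at 8.24, 8.67 and 8.10, and in neurons it was 2.32-fold lower than in precursors. Of the 10 endothelial genes 6 were not tested, and these lay below the array median in every precursor array. The other 3, Pecam1, Kdr and Flt1, were lower in neurons but passed the level filter through precursor and co-culture arrays alone. Of 4 tested meningeal fibroblast genes 0 passed (limma), and 0 had an unadjusted p under 0.05. Of 8 tested pericyte and smooth muscle genes 2 were higher in neurons (Acta2 and Tagln) and 2 lower. Of 8 tested microglia genes 1 was higher and 3 lower. The higher one, Aif1, passed the level filter through neuron arrays alone, and Tyrobp, which was lower, through precursor and co-culture arrays alone. Of 4 tested astrocyte and oligodendrocyte precursor genes 1 was higher and 1 lower.

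Laminins are cross-shaped proteins of an alpha, a beta and a gamma chain, and form the sheet of a basement membrane together with type IV collagen, nidogen and perlecan. Integrins are dimers of an alpha and a beta subunit that span the cell membrane and bind such proteins outside the cell and the actin skeleton inside it. In the developing cortex the end feet of radial precursors rest on the basement membrane below the meninges, and vessels carry another. Fibril-forming collagens are made mainly by fibroblasts.

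For 6 members on which the results turn, the stretch of DNA before the start is shown. Among members with an entry in the sequence table, Itgb1, Itga5 and Lamb1 are the beta subunit, the alpha subunit and the laminin chain that lay farthest below precursors in neurons, and Col8a1 is the collagen farthest above. Itga8 and Itgb8 are the integrins with the lowest p in the co-culture against precursors. Each is the 250 bases upstream of the annotated start, 5′ to 3′, from RefSeq on build GRCm38.p6, and capitals mark matches to a CCAAT box (CCAAT), a GC box (GGGCGG) or a TATA box (TATAAA) on either strand. Itgb1, Itga5 and Lamb1 were lower in neurons, and Itga8, Itgb8 and Col8a1 were higher.
Itgb1, chr8:128685404-128685653, plus strand: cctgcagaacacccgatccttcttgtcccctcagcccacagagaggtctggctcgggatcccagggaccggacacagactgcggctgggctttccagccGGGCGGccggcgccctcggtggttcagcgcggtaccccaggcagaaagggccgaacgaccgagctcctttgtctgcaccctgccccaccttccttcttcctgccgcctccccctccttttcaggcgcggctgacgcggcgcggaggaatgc
Itga5, chr15:103366792-103367041, minus strand: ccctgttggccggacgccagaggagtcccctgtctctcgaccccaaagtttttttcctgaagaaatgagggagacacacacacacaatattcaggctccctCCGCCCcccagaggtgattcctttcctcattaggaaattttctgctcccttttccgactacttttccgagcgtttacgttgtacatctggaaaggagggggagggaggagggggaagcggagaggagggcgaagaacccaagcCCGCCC
Lamb1, chr12:31265043-31265292, plus strand: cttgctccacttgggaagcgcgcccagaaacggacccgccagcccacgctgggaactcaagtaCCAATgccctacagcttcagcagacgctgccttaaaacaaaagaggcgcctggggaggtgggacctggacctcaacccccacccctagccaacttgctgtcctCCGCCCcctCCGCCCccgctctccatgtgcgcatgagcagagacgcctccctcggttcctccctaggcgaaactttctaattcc
Itga8, chr2:12301945-12302194, minus strand: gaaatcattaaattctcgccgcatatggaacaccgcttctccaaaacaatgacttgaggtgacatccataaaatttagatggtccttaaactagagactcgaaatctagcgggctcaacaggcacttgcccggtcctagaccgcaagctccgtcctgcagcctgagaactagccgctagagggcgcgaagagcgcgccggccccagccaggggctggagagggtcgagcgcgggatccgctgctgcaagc
Itgb8, chr12:119238277-119238526, minus strand: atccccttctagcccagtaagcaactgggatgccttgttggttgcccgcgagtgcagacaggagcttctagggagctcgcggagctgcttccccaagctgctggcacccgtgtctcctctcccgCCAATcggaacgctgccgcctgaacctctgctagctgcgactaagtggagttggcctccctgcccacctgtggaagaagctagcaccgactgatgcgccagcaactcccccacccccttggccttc
Col8a1, chr16:57754738-57754987, minus strand: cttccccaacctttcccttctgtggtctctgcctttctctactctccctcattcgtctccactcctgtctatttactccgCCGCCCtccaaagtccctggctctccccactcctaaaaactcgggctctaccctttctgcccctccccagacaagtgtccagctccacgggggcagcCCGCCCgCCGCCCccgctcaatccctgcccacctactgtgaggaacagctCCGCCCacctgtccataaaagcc
The window of Itgb1 held 1 GC box, that of Itga5 2, and that of Lamb1 2 together with 1 CCAAT box. The window of Col8a1 held 4 GC boxes, that of Itgb8 1 CCAAT box, and that of Itga8 none of these letters. Windows were found for 61 of the 84 members, 67 windows in all, and 47.8% of them held a GC box, 26.9% a CCAAT box and 7.46% a TATA box. Over all 32851 windows of the table the shares were 32.7%, 33.8% and 12.4%. These matches are letters in a window and do not show that a factor binds there.

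Between neurons and precursors, all tested laminin chains and several laminin and fibronectin receptor subunits differed, and most collagens did not pass. Of 49 tested members 6 were higher in neurons and 12 lower, that is 36.7%, by limma at an adjusted p under 0.05. Among all 13012 tested genes 63.1% passed, 28% higher and 35.2% lower, so a smaller share of the members passed than of all genes. This depends on the level filter. With a filter at the 75th percentile 8 members were left, of which 1 was higher and 6 lower, where 78% of 7670 tested genes passed. At that filter the share of members was not the smaller one. The arrays of both groups were apart in 19 members (66.4% of all tested genes). The median size of the difference was 0.152 on the log2 scale for members and 0.267 for all tested genes. By class, 6 of 6 laminin chains passed, 5 of 9 alpha subunits, 2 of 5 beta subunits, 4 of 26 collagens and 1 of 3 genes matched by their letters. One member, Itga6, differed by more than 2-fold, which 10.3% of all tested genes did.

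**Figure D1:**
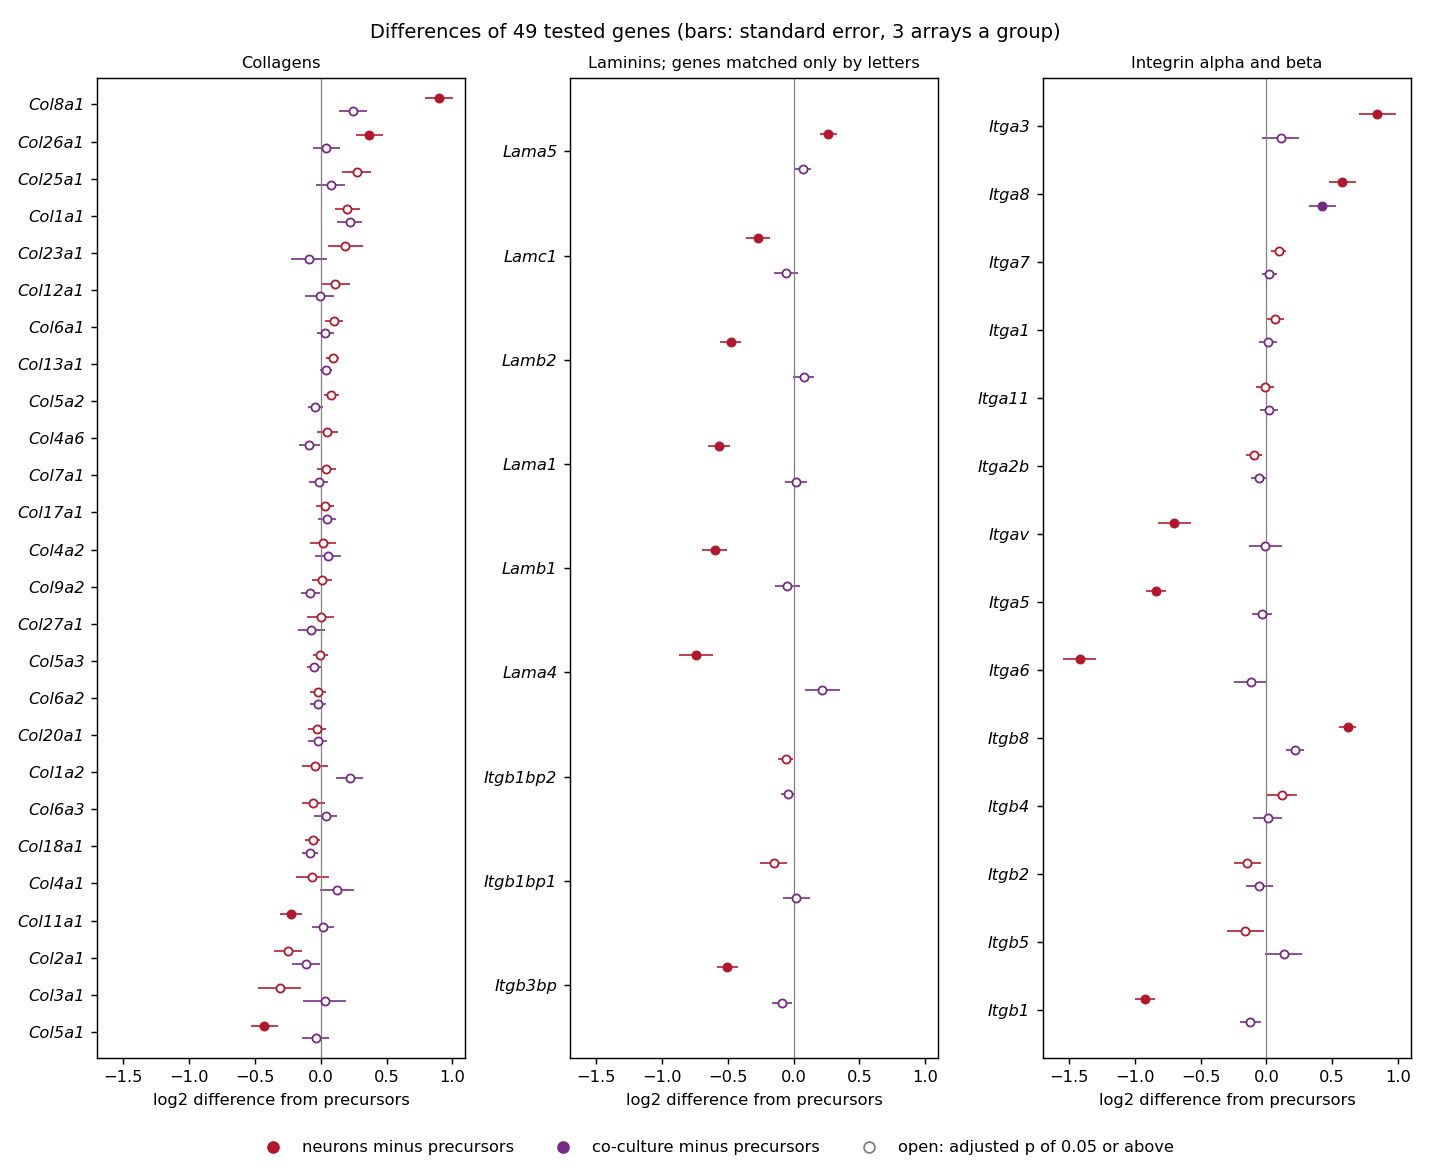
Log2 differences from precursors of the 49 tested genes, with neurons in red, the co-culture in purple, bars of 1 standard error and open points where limma's adjusted p was 0.05 or above. Itga6 lies farthest to the left at -1.42, most collagens lie near 0 with open points, and Itga8 is the member whose purple point is filled.

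Of the 6 tested laminin chains, 5 were lower in neurons and 1 was higher, with a median log2 difference of -0.52 against -0.02 for all tested genes. Over all 10 matched chains, 4 of them below the level filter, the median was -0.14, and without the filter 2 were higher and 5 lower. Lama1 encodes an alpha chain of the earliest basement membranes of the embryo. It was at 6.74, 7.00 and 6.97 in the neuron arrays, 7.44, 7.48 and 7.49 in the precursor arrays and 7.48, 7.63 and 7.37 in the co-culture arrays (log2 RMA levels, replicates 1 to 3, as in all that follows). All neuron arrays lay below all others, and the level in neurons was 1.48-fold lower than in precursors (log2 difference -0.57, SE 0.082, adjusted p = 1.79e-04, limma). Lama4, an alpha chain of vessel walls, was at 6.30, 6.50 and 6.48 in neurons, 7.17, 7.12 and 7.21 in precursors and 7.31, 7.73 and 7.11 in the co-culture. It was 1.67-fold lower in neurons (adjusted p = 7.01e-04), it passed the level filter through precursor and co-culture arrays alone, and co-culture replicate 2 was its highest array. Lamb1, the beta chain that most embryonic laminins share, was at 7.75, 7.93 and 7.87 in neurons, 8.32, 8.53 and 8.51 in precursors and 8.30, 8.61 and 8.30 in the co-culture. Its level in neurons was 1.52-fold lower (adjusted p = 2.98e-04), and neuron arrays did not overlap with the others.

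Lamb2, the beta chain known from synaptic and kidney basement membranes, was at 7.43, 7.58 and 7.36 in neurons, 8.07, 7.87 and 7.87 in precursors and 8.13, 7.96 and 7.94 in the co-culture. This was 1.39-fold lower in neurons (adjusted p = 5.22e-04), with no overlap. Lamc1, the gamma chain common to most laminins, was at 8.50, 8.89 and 8.67 in neurons, 9.05, 8.89 and 8.94 in precursors and 8.89, 8.97 and 8.85 in the co-culture. Neuron replicate 2 reached the lowest precursor array, so the groups overlap, and the 1.21-fold lower level in neurons had an adjusted p of 0.0245. That call was lost with cyclic loess normalization (0.071) and without neuron replicate 1 (-0.18, adjusted p = 0.082), neuron replicate 3 (0.0598), precursor replicate 1 (0.086) or precursor replicate 3 (0.0501).

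Lama5, an alpha chain that takes over from Lama1 in many basement membranes as the embryo grows, was the laminin chain higher in neurons. It was at 7.26, 7.34 and 7.18 in neurons, 7.07, 6.86 and 7.07 in precursors and 7.07 in each co-culture array. The groups of separate cultures did not overlap, and neurons had 1.2-fold more (log2 difference 0.26, SE 0.066, adjusted p = 0.0056). Its deposited values were identical, at 7.0687, in precursor replicates 1 and 3 and in all co-culture arrays. The co-culture thus added no spread to the fit of this gene. The endothelial marker Cdh5 was lower in neurons together with the other laminin chains. The linear levels of all 10 endothelial genes, tested or not, were summed, and Cdh5, with the highest values, weighs most in that sum. Its log2 lay between 9.53 and 9.64 in neurons and between 10.07 and 10.15 in precursors. The part of endothelial cells in the laminin difference was not tested.

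The integrin alpha subunits split by direction, with 3 lower and 2 higher in neurons of 9 tested. Itga6 encodes a laminin receptor subunit long used as a stem cell surface marker. It was at 8.03, 8.12 and 7.87 in neurons, 9.49, 9.55 and 9.22 in precursors and 9.37, 9.50 and 9.05 in the co-culture. Every neuron array lay below all precursor and co-culture arrays, and the 2.67-fold difference was the largest among the 49 members (log2 difference -1.42, SE 0.12, adjusted p = 5.41e-06). Itga5, the alpha subunit of the main fibronectin receptor, was at 7.47, 7.66 and 7.47 in neurons, 8.45, 8.25 and 8.41 in precursors and 8.35, 8.41 and 8.26 in the co-culture. This made it 1.79-fold lower in neurons (adjusted p = 5.78e-06). Itgav, whose dimers bind vitronectin, fibronectin and latent TGF-beta, was at 7.92, 8.40 and 7.85 in neurons, 8.69, 8.74 and 8.85 in precursors and 8.69, 8.86 and 8.69 in the co-culture. Neuron replicate 2 was the highest neuron array but still lay below the precursors, and the level in neurons was 1.62-fold lower (adjusted p = 7.86e-04).

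Itga3, another laminin receptor subunit, which migrating cortical neurons use, ran the other way from Itga6. It was at 7.98, 8.46 and 8.06 in neurons, 7.07, 7.33 and 7.57 in precursors and 7.39, 7.41 and 7.50 in the co-culture, with neurons 1.80-fold above precursors (log2 difference 0.84, SE 0.14, adjusted p = 4.98e-04). Itga8, the receptor subunit for nephronectin, was at 7.52, 7.13 and 7.40 in neurons, 6.67, 6.86 and 6.78 in precursors and 7.13, 7.34 and 7.13 in the co-culture. It was 1.49-fold higher in neurons (adjusted p = 7.53e-04), without overlap although neuron replicate 2 was its lowest neuron array. The collagen receptor subunits Itga1 and Itga11, the platelet subunit Itga2b and the muscle laminin receptor subunit Itga7 did not pass, with adjusted p of 0.455, 0.909, 0.192 and 0.188. Itga7 was at 6.82, 6.90 and 6.98 in neurons, 6.81, 6.79 and 6.83 in precursors and 6.74, 6.91 and 6.85 in the co-culture, close to the array medians of 6.75 to 6.79.

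Of the 5 tested beta subunits, Itgb1 was lower in neurons, Itgb8 was higher and 3 did not pass. Itgb1 pairs with most laminin, fibronectin and collagen receptor subunits, and was at 8.39, 8.64 and 8.40 in neurons, 9.32, 9.39 and 9.49 in precursors and 9.24, 9.36 and 9.23 in the co-culture. The neuron arrays lay well apart from the rest, 1.90-fold lower than precursors (log2 difference -0.92, SE 0.077, adjusted p = 3.47e-06). Itgb8 pairs with Itgav to release TGF-beta from its latent form, and had the opposite pattern to its partner. It was at 9.90, 10.07 and 9.93 in neurons, 9.44, 9.22 and 9.40 in precursors and 9.59, 9.58 and 9.55 in the co-culture. The 3 groups were apart from each other, and neurons were 1.53-fold above precursors (log2 difference 0.62, SE 0.066, adjusted p = 2.19e-05).

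Itgb5, another partner of Itgav, was at 7.69, 7.85 and 7.28 in neurons, 7.93, 7.55 and 7.82 in precursors and 7.98, 7.88 and 7.84 in the co-culture, with overlapping groups (adjusted p = 0.354). Itgb2, the beta subunit of leukocytes, was at 6.93, 6.52 and 6.75, at 7.03, 6.77 and 6.83, and at 6.86, 6.77 and 6.84 in the same order (adjusted p = 0.24). Its myeloid partner Itgam lay below the level filter, with values between 6.41 and 6.62 in all 9 arrays. Itgb4, the hemidesmosome partner of Itga6, had an adjusted p of 0.39, and of 0.0116 (0.26, higher in neurons) without neuron replicate 2. Itgb2 passed without neuron replicate 1 (-0.25, adjusted p = 0.0462). Among the genes matched by their letters, the centromere gene Itgb3bp was 1.42-fold lower in neurons, at 6.41, 6.64 and 6.63 against 7.16, 7.07 and 6.97 in precursors, and at 7.00, 7.04 and 6.89 in the co-culture (adjusted p = 2.51e-04). It passed the level filter through precursor and co-culture arrays alone. Itgb1bp1, an adaptor that binds the tail of the Itgb1 protein, passed only without precursor replicate 2 (-0.25, adjusted p = 0.0463).

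**Figure D2:**
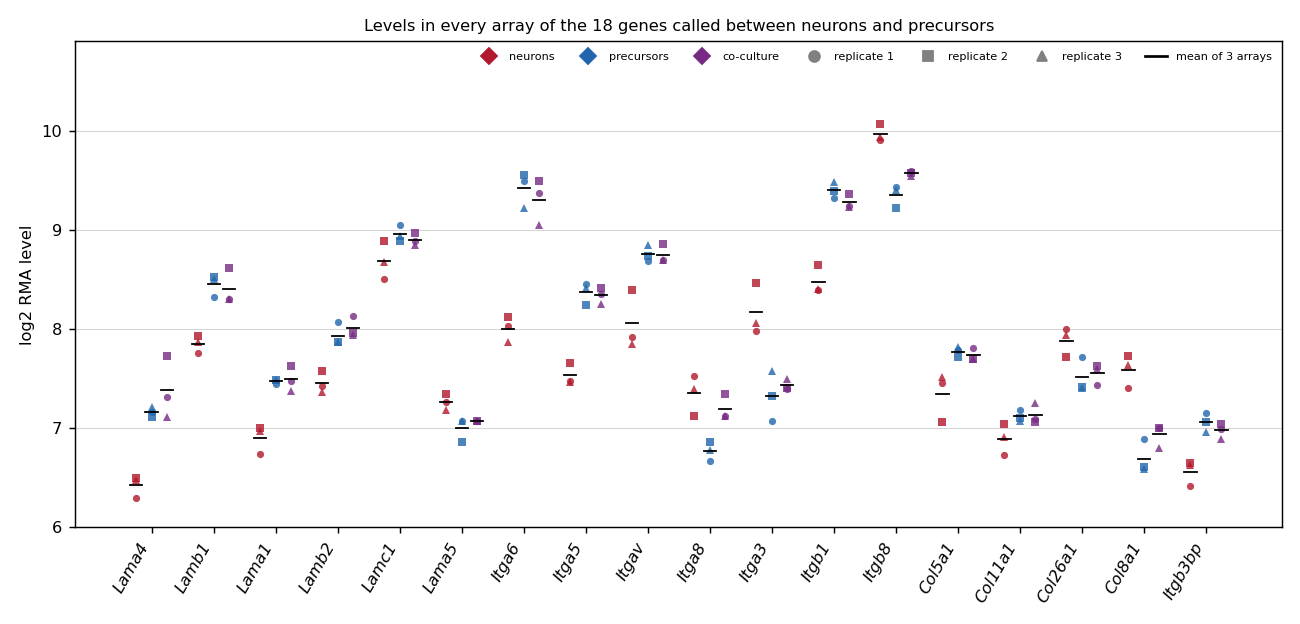
Log2 RMA levels in each of the 9 arrays of the 18 members that differed between neurons (red) and precursors (blue), with the co-culture in purple, a marker shape per replicate number and a black line at the mean of 3 arrays. Itgb1 and Itga6 have co-culture levels close to those of precursors, and the Itga8 co-culture arrays lie above all precursor arrays.

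Most collagens did not pass between neurons and precursors, with 2 of 26 higher in neurons, 2 lower and a median log2 difference of 0.01. Without the level filter 2 of all 44 collagens were higher and 1 lower. Col8a1, a short network-forming collagen of vessel walls and the cornea, had the largest difference of the class. It was at 7.41, 7.72 and 7.64 in neurons, 6.89, 6.60 and 6.59 in precursors and 7.01, 7.01 and 6.80 in the co-culture, and was 1.86-fold higher in neurons, without overlap (log2 difference 0.90, SE 0.11, adjusted p = 4.37e-05). Col26a1 was at 8.00, 7.71 and 7.94 in neurons, 7.72, 7.42 and 7.40 in precursors and 7.44, 7.63 and 7.60 in the co-culture. The groups of separate cultures overlapped by 1 array each, and the level in neurons was 1.29-fold higher (adjusted p = 0.0102).

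Col5a1, a minor fibril collagen that starts fibrils of type I, was lower in neurons. It was at 7.46, 7.06 and 7.51 in neurons, 7.79, 7.72 and 7.81 in precursors and 7.81, 7.70 and 7.70 in the co-culture, a 1.35-fold difference (adjusted p = 0.00484) in which neuron replicate 2 was the lowest array. Col11a1, its relative in cartilage, was at 6.73, 7.04 and 6.91 in neurons, 7.18, 7.11 and 7.07 in precursors and 7.09, 7.06 and 7.25 in the co-culture, 1.17-fold lower in neurons (adjusted p = 0.038). The Col11a1 call was lost without neuron replicate 1 (-0.14, adjusted p = 0.132) or 3 (0.068), without precursor replicate 1 (0.113), 2 (0.0732) or 3 (0.0549), without co-culture replicate 1 (0.0517), without the level filter (0.0662), with the replicate block (0.0509) and with only those 2 groups in the fit (0.0518).

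Type IV collagen, the basement membrane collagen that is laid down with laminin, did not move with the laminin chains past the threshold. Col4a1 was at 7.21, 7.01 and 7.59 in neurons, 7.36, 7.34 and 7.29 in precursors and 7.40, 7.59 and 7.37 in the co-culture (neurons minus precursors -0.06, adjusted p = 0.69). Col4a2, which shares its promoter region, was at 7.30, 6.96 and 7.38 in neurons, 7.21, 7.21 and 7.17 in precursors and 7.21, 7.34 and 7.21 in the co-culture (0.02, adjusted p = 0.896). The neuron arrays spread on both sides of the precursor arrays for both genes. In RefSeq the annotated starts of Col4a1 and Col4a2 lie 21 bases apart on opposite strands of chromosome 8. Without neuron replicate 3, Col4a1 was lower in neurons (-0.22, adjusted p = 0.0449), and without neuron replicate 2, Col4a2 was higher (0.14, adjusted p = 0.045).

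The fibril collagens of connective tissue were near the middle of the scale. Col1a1, a chain of type I collagen, was at 7.90, 7.72 and 7.95 in neurons, 7.58, 7.68 and 7.70 in precursors and 7.79, 8.09 and 7.74 in the co-culture. Its neuron arrays lay above all precursor arrays, but the difference of 0.20 had an adjusted p of 0.0883. It passed with cyclic loess (0.0463), with only those 2 groups (0.0447), without neuron replicate 2 (0.0339) and without co-culture replicate 2 (0.0283). Col1a2, its partner chain, was at 6.57, 6.79 and 6.83 in neurons, 6.78, 6.75 and 6.79 in precursors and 6.99, 7.20 and 6.79 in the co-culture (-0.04, adjusted p = 0.736). Col3a1, the collagen of pliable tissue and vessel walls, was at 7.15, 6.60 and 7.26 in neurons, 7.26, 7.26 and 7.43 in precursors and 7.26, 7.59 and 7.19 in the co-culture (-0.31, adjusted p = 0.125). Without neuron replicate 3 it was lower in neurons (-0.44, adjusted p = 0.0482).

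Col2a1, the main collagen of cartilage, which early neural tissue also makes, was at 7.67, 7.19 and 7.55 in neurons, 7.78, 7.66 and 7.71 in precursors and 7.66, 7.56 and 7.60 in the co-culture. The difference of -0.25 had an adjusted p of 0.0613 and passed with the replicate block (0.0226), with centred arrays (0.0469) and without neuron replicate 1 (0.0131). Col25a1, a collagen of neuronal membranes, was at 7.81, 7.42 and 7.83 in neurons, 7.51, 7.32 and 7.40 in precursors and 7.65, 7.43 and 7.39 in the co-culture. Neuron replicate 2 lay within the precursor range, and the difference of 0.27 had an adjusted p of 0.0607, against 0.00273 without that array (0.40), 0.0176 with the replicate block, 0.0227 with array weights and 0.0428 with cyclic loess. Col23a1 was higher in neurons without precursor replicate 1 (0.34, adjusted p = 0.0285).

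Neuron replicate 2 stood apart in these genes. It lay at least 0.25 log2 units below both other neuron arrays in 9 of 49 tested members (Col25a1, Col27a1, Col2a1, Col3a1, Col4a2, Col5a1, Col6a3, Itga8 and Itgb4), which is 18.4% against 4.19% of all tested genes. It lay as far above both in 3 (Col12a1, Itga3 and Itgav), which is 6.12% against 4.04%. That distance was chosen after the values were seen. Without this array 10 members in place of 6 were higher in neurons than in precursors, and 12 were lower. In that fit 63.8% of all tested genes passed, against 63.1% with all arrays. The 4 added members were Col1a1, Col25a1, Col4a2 and Itgb4. Of these, Col25a1, Col4a2 and Itgb4 were listed above because this array was low in them, so leaving it out must raise their neuron mean.

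The co-culture was set against precursors to see what differs when precursors share a dish with neurons, whose RNA is part of the sample. One member of 49, Itga8, was higher in the co-culture and 0 were lower, that is 2.04%, where 8.42% of all tested genes passed, 8.22% higher and 0.2% lower. At an unadjusted p under 0.05 there were 4 members, all higher in the co-culture: Col1a1, Col8a1, Itga8 and Itgb8. That is 4 of 49, where 18% of all tested genes had such a p. The groups did not overlap in 6 members, while 24.8% of all tested genes had groups apart. No member was 2-fold apart, which 0.407% of all tested genes were. Itga8 was 1.34-fold higher in the co-culture, and all co-culture arrays lay above all precursor arrays (log2 difference 0.42, SE 0.10, adjusted p = 0.0335, limma). Its deposited values in co-culture replicates 1 and 3 and in neuron replicate 2 were identical, at 7.1253. The labels do not say whether arrays of equal number are paired, and with the replicate number as a block Itga8 no longer passed (adjusted p = 0.0666). It also failed without any 1 precursor array (0.114, 0.0578 and 0.088 for replicates 1 to 3), without any 1 co-culture array (0.0719, 0.139 and 0.0643) and without the level filter (0.0646).

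Itgb8 was next, 1.16-fold above precursors in the co-culture with groups apart, and missed the threshold (log2 difference 0.22, SE 0.066, adjusted p = 0.0859). It passed with array weights (0.0269), with a variance trend (0.044) and with a level filter at the 75th percentile (0.0438). Both Itga8 and Itgb8 were also higher in neurons than in precursors. The subunits that precursors had at higher levels did not pass, and their precursor and co-culture arrays overlapped. The co-culture differed from precursors by -0.12 in Itga6 (adjusted p = 0.747), -0.12 in Itgb1 (0.505), -0.03 in Itga5 (0.901) and -0.01 in Itgav (0.985). The 6 laminin chains differed by between -0.06 and 0.22, with adjusted p from 0.473 for Lama4 to 0.95 for Lama1.

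Against neurons, 12 members were higher in the co-culture and 5 lower (34.7%), where 60.6% of all tested genes passed, 35.7% higher and 24.9% lower. This comparison shares the neuron arrays with the first, so the values of both are given side by side only. The groups were apart in 17 members (65.4% of all tested genes). Itga6 was the member past 2-fold, which 6.55% of all tested genes were, at 2.46-fold above neurons (log2 difference 1.30, adjusted p = 1.36e-05). Next came Lama4 at 1.95-fold (1.47e-04), Itga5 at 1.75-fold (1.06e-05), Itgb1 at 1.74-fold (1.30e-05) and Itgav at 1.61-fold (9.83e-04). Lama1 was 0.59 on the log2 scale, Lamb1 0.55 and Lamb2 0.55 above neurons, while Lamc1 did not pass (0.21, adjusted p = 0.0662). Of the members higher in neurons, Itga3 was 1.67-fold, Col8a1 1.57-fold and Itgb8 1.32-fold lower in the co-culture. Itga8 did not pass there (-0.15, adjusted p = 0.229), except without neuron replicate 2 (-0.27, adjusted p = 0.0227).

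The smaller differences called against neurons lay close to the threshold. Lama5 was lower in the co-culture (-0.19, adjusted p = 0.0279), but did not pass without neuron replicate 1 (0.0603) or 2 (0.0827) or any 1 co-culture array (0.063 to 0.0668), nor without the filter (0.0519), with centred arrays (0.0504) or with cyclic loess (0.0628). Its difference was -0.19 without any 1 co-culture array and -0.15 without neuron replicate 2. Col26a1 was lower (-0.33, adjusted p = 0.0199), but not without neuron replicate 1 (0.0732), neuron replicate 3 (0.061) or co-culture replicate 1 (0.0765). Col11a1 was higher (0.24, adjusted p = 0.03), but not without neuron replicate 1 (0.16, adjusted p = 0.101), neuron replicate 3 (0.0564), co-culture replicate 1 (0.05) or co-culture replicate 3 (0.18, adjusted p = 0.108), nor without the level filter (0.0519). Col1a2 was higher (0.26, adjusted p = 0.046), but not without the level filter (0.0741). With co-culture replicate 2 left out the difference was 0.16 (adjusted p = 0.165), and it passed only in the fits that left out neuron replicate 3 or co-culture replicate 3 among those that left out an array. Without neuron replicate 2, 9 members were lower in the co-culture and 13 higher, where 61.9% of all tested genes passed.

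No member lay outside both separate cultures in the co-culture at an adjusted p under 0.05 (limma, the larger of 2 one-sided p-values), and neither did any other tested gene. At an unadjusted p under 0.05, 1.08% of all tested genes lay above both and 0.976% below both. Col1a2 was the member with the lowest such p for a level above both, 0.0279. The place of the co-culture between precursors, taken as 0%, and neurons, taken as 100%, was computed on the linear scale as a description. For Itga6, the 1 member past 2-fold, it was 6.34%, -7.53% and 37.2% in the 3 co-culture arrays, a mean of 12% ± 22.9 (SD, n = 3). The median over all 624 genes at least 2-fold higher in precursors was 10.7% ± 3.04. Among members at least 1.5-fold different, a limit added after the data were seen, Itgb8 lay at 30.3% ± 3.47, Col8a1 at 21.1% ± 11 and Itga3 at 8.52% ± 5.32, all higher in neurons. The median over all genes at least 1.5-fold higher in neurons was 23.2% ± 1.3. Of those higher in precursors, Itgb1 lay at 17.2% ± 10, Lamb1 at 8.43% ± 36.3, Itga5 at 5.35% ± 11.9, Itgav at 1.68% ± 17.5 and Lama4 at -45.5% ± 65.6. The median over all genes at least 1.5-fold higher in precursors was 10.4% ± 3.82, and that over the 9 members was 7.97% ± 12.2.

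Co-culture replicate 2 stood above the other 2 co-culture arrays in some collagen and laminin chains, but not in most members. It lay at least 0.25 log2 units above both in 4 of 49 tested members (Col1a1, Col3a1, Lama4 and Lamb1), 8.16% against 1.03% of all tested genes. It lay that far below both in 0 members, against 0.891%. Over all 84 members, tested or not, it was the highest co-culture array in 25 and the lowest in 33, with ties given to the lower number. Over all 22180 genes it was highest in 31.9% and lowest in 34.5%. The mean level of the 44 collagens was 6.83 in it and 6.84 and 6.88 in the others. That of the 10 laminin chains was 7.37 against 7.31 and 7.25. The basement membrane linkers Nid1 and Nid2 were also above, Nid1 at 8.32 against 7.84 and 7.71. Of the 10 meningeal fibroblast genes 2 were above both others and 8 were not. Dcn, a proteoglycan of fibroblasts, was at 8.25 in it and at 6.97 and 6.42 in the others, and Lum, another, at 7.47 against 6.43 and 5.50. Of the 10 endothelial genes 3 were above, Cdh5, Kdr and Emcn, with Emcn at 7.06 against 6.39 and 6.07. Anpep (7.08 against 6.74 and 6.80) was the 1 gene above in the pericyte and smooth muscle list. Pdgfra (6.81 against 6.04 and 6.20) was the 1 gene above in the astrocyte and oligodendrocyte precursor list. In that last list 2 genes lay as far below both others. The log2 of its summed linear levels was lowest in replicate 2, at 10.28 against 10.39 and 10.33. Of the neuron, radial precursor and microglia lists 0 genes were above both others. The log2 of the summed linear levels of the 10 meningeal fibroblast genes was 10.14 in replicate 2 and 9.78 and 9.62 in the others. Of these genes Dcn and Lum alone were that far above. In neurons this sum was 9.59 to 9.73 and in precursors 9.60 to 9.65. For the 10 endothelial genes it was 10.33 in replicate 2 against 10.07 and 10.05. Their part in the collagen and laminin levels of this array was not tested. Without co-culture replicate 2, Lama4 was 0.79 above neurons in place of 0.96.

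**Figure D3:**
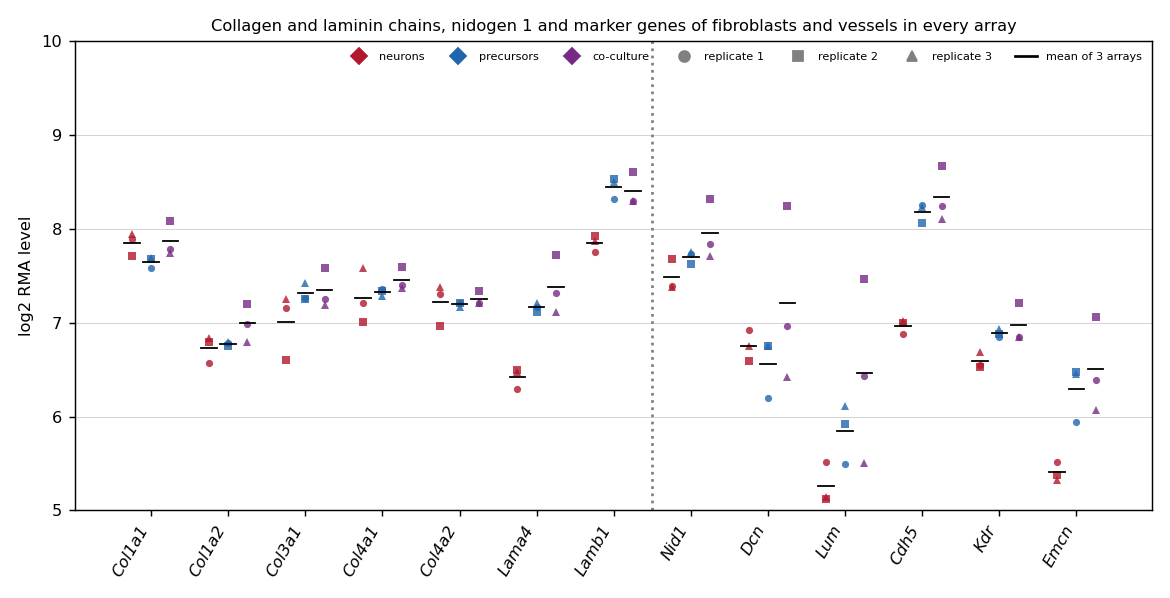
Log2 RMA levels in each array of collagen and laminin chains (left of the dotted line) and of nidogen 1, fibroblast genes and endothelial genes (right), with neurons in red, precursors in blue, the co-culture in purple and a black line at the mean of 3 arrays. The purple square, co-culture replicate 2, is the highest co-culture array for each gene shown, at 8.25 for Dcn and 7.73 for Lama4. Right of the line only genes are shown in which this array lay at least 0.25 log2 units above both others. Its place there follows from that choice, and the other genes of their lists are left out.

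Genes that work with the members were read from 6 lists, chosen for their roles and given here by counts, beside the 28% higher and 35.2% lower of all tested genes. Of 8 tested basement membrane linkers 2 were higher and 1 lower in neurons. Npnt, which encodes nephronectin, the ligand of the Itga8 dimer, was at 8.35, 8.46 and 8.18 in neurons and 7.38, 7.47 and 7.18 in precursors, 1.98-fold higher (adjusted p = 5.29e-06). It was thus higher in the same culture as Itga8, and at 7.64, 7.72 and 7.63 in the co-culture it had an adjusted p of 0.0559 against precursors. Of 11 tested other glycoproteins and proteoglycans 5 were higher and 5 lower. Among the lower ones, Vtn and Thbs2 passed the level filter through precursor and co-culture arrays alone. Sparcl1, a secreted protein of the SPARC family, was at 9.46, 9.67 and 9.57 in neurons, 6.97, 7.24 and 7.51 in precursors and 8.16, 8.86 and 8.05 in the co-culture. It was 5.02-fold higher in neurons, followed by the perineuronal net genes Tnr (4.96-fold) and Acan (2.86-fold), and Thbs1 (2.12-fold). Fn1, which encodes fibronectin, the ligand of the Itga5 dimer, was picked out after its values were seen and was 1.43-fold lower in neurons, at 9.80, 9.87 and 9.76 against 10.33, 10.29 and 10.36, with 10.30, 10.39 and 10.30 in the co-culture.

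Of 19 tested genes of collagen synthesis and crosslinking 3 were higher and 8 lower in neurons. Serpinh1, the collagen chaperone of the endoplasmic reticulum, was at 7.19, 7.39 and 7.19 in neurons, 8.72, 8.59 and 8.83 in precursors and 8.65, 8.68 and 8.65 in the co-culture, 2.74-fold lower in neurons. The lysyl hydroxylase gene Plod2 and the prolyl 3-hydroxylation gene Crtap were both 1.66-fold lower, and the glycosyltransferase gene Colgalt2, which passed the level filter through neuron arrays alone, was 1.73-fold higher. Of 15 tested genes of the adhesion complex on the inner side of integrins 4 were higher and 8 lower. Parva, a scaffold gene of the complex, was at 8.65, 9.02 and 8.77 in neurons, 9.61, 9.54 and 9.55 in precursors and 9.51, 9.49 and 9.45 in the co-culture, 1.69-fold lower in neurons, and Zyx was 1.74-fold lower. Parvb, 1.55-fold lower, passed the level filter through precursor and co-culture arrays alone, and the kinase gene Ptk2b, 1.91-fold higher, through neuron arrays alone. Of 11 tested other matrix receptors and genes of dystroglycan glycosylation 4 were higher and 2 lower. Among the higher ones, Sgca passed the level filter through neuron arrays alone. The collagen receptor kinases Ddr2 and Ddr1 were 2.55-fold and 2.38-fold lower, and Sgcb was 1.73-fold higher. Cd47, which associates with integrins, was at 11.10, 11.16 and 11.10 in neurons, 9.31, 9.39 and 9.52 in precursors and 10.14, 10.14 and 10.12 in the co-culture, 3.28-fold higher in neurons. Of 16 tested proteases and inhibitors 4 were higher and 7 lower, with Adamts9 4.04-fold lower and Timp2 2.92-fold and Mmp24 2.47-fold higher. The membrane protease gene Mmp14 was at 7.22, 7.43 and 7.09 in neurons, 9.30, 9.33 and 9.37 in precursors and 9.14, 9.26 and 9.14 in the co-culture, 4.25-fold lower in neurons. In the co-culture against precursors, 3 of the other glycoproteins, 2 of the other receptors and 4 of the proteases and inhibitors were higher, 0 of the remaining lists and 0 genes of any list lower.

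**Figure D4:**
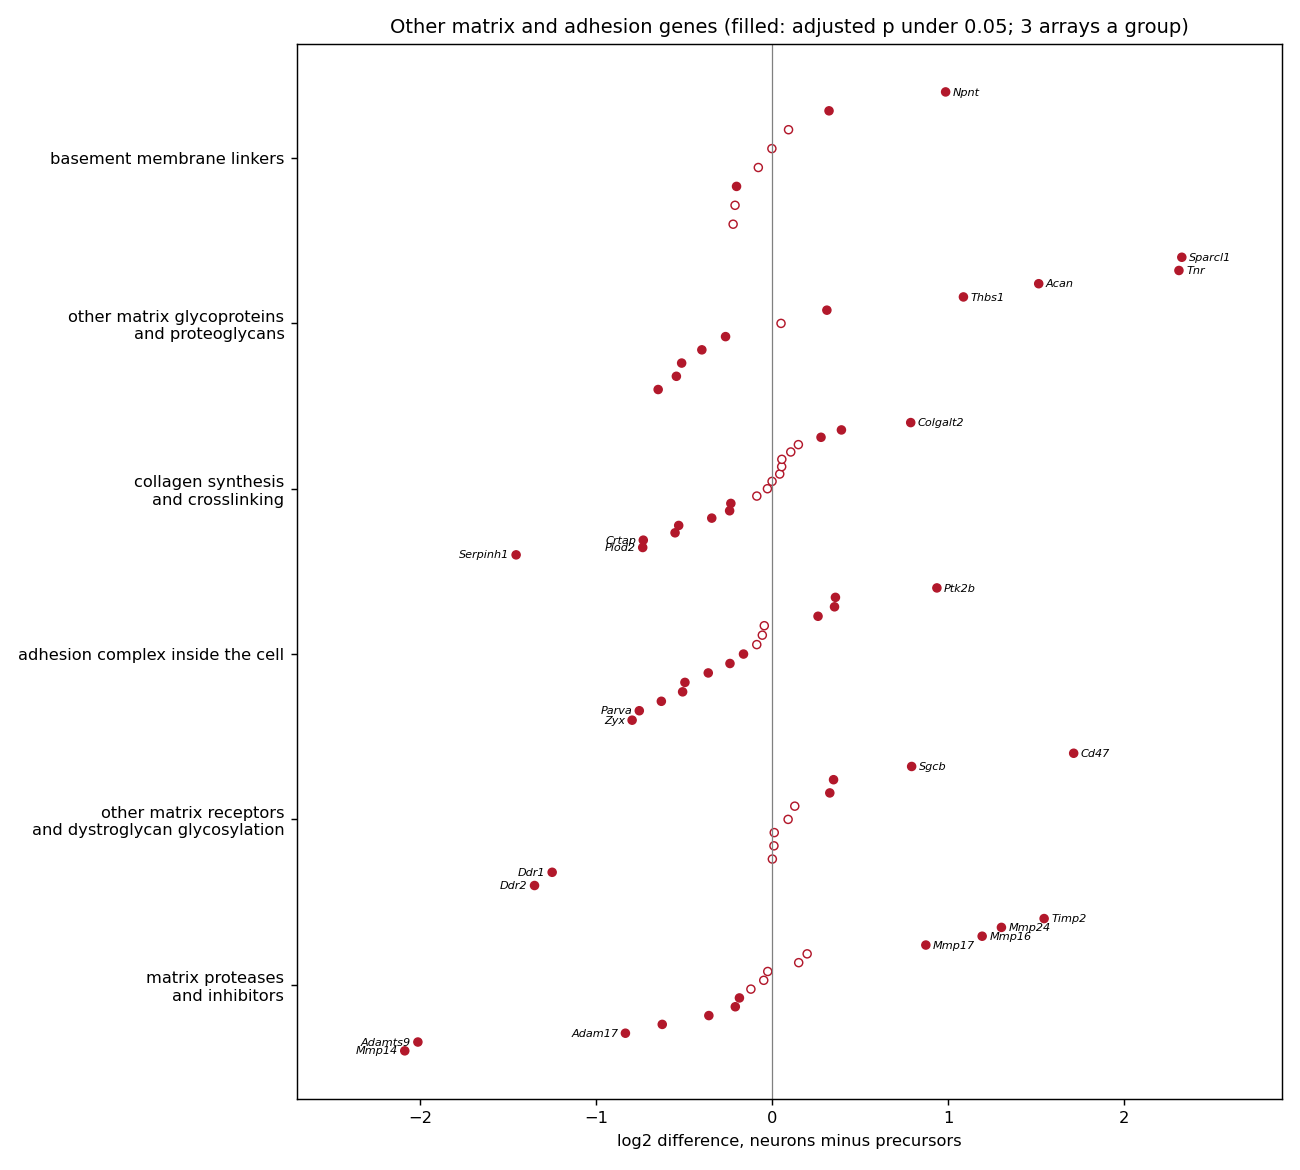
Log2 differences between neurons and precursors of the tested genes of 6 related lists, a point per gene, filled where limma's adjusted p was under 0.05, with the genes beyond 0.7 named. Mmp14 and Adamts9 lie farthest to the left and Sparcl1 and Tnr farthest to the right, all filled.

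The 35 members below the level filter had values between 4.89 and 6.83 in single arrays. They are 18 collagens (Col10a1, Col11a2, Col14a1, Col15a1, Col16a1, Col19a1, Col22a1, Col24a1, Col28a1, Col4a3, Col4a4, Col4a5, Col6a4, Col6a5, Col6a6, Col8a2, Col9a1 and Col9a3) and 4 laminin chains (Lama2, Lama3, Lamb3 and Lamc3). The rest are 8 alpha subunits (Itga2, Itga4, Itga9, Itgad, Itgae, Itgal, Itgam and Itgax), 3 beta subunits (Itgb3, Itgb6 and Itgb7) and 2 genes matched by their letters (Itgb2l and Itgbl1). The leukocyte subunits Itgad, Itgae, Itgal, Itgam, Itgax and Itgb7 are in this group, while Itgb2 passed the filter. Just outside the filter were Lama2 and Col16a1, above the median in 2 arrays, and closest inside were Col18a1, Col4a6, Col6a3, Itgb2, Itgb3bp and Lama4, above it in 6.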

How the data were processed

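Levels are log2 values per probe set that the authors deposited, made by RMA in oligo, per the submitters' processing notes, which name neither versions nor a genome build. The cDNA came from 100 ng of total RNA, per the labels. RMA corrects background, equalises the arrays' distributions and summarises probes over all arrays. Only the 23521 of 41345 probe sets with 1 gene symbol in the platform annotation were used (1814 have several, 16010 none), and 23328 of them matched RefSeq by gene number. Each gene was read from its brightest probe set (highest mean over the arrays). The test covered genes that exceeded the median level of an array in 3 or more arrays.

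All 13012 such genes went into 1 limma fit of the 3 groups (limma 3.58.1 in R 4.3.3), with two-sided p-values adjusted by the Benjamini-Hochberg method at 0.05. The fit was tested on simulated data. Folds are ratios on the linear scale of the log2 means and may be understated for dim genes. Levels of different genes come from different probes and are not compared. Arrays have no read depth, so 3 arrays a group limit the precision, and p-values measure only the spread between them.

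The members and gene lists were chosen with earlier results of these data known. Values in every array are given for the members past the threshold without overlap and for members picked by role. From each related list up to 4 genes with the largest differences are named, with values in every array for 1 of them, and from the cell type lists a few genes each. Further genes are named where the level filter or a single array bears on a count. Alternatives were other level filters, centred arrays, cyclic loess, array weights, a variance trend, the mean of a gene's probe sets, only 2 groups in the fit, the replicate number as a block, and each array left out.

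Deviations from the group mean correlated across genes between precursor and co-culture arrays of equal number at 0.345, 0.30 and 0.161 for numbers 1 to 3. For neurons and precursors the values were 0.0043, 0.134 and -0.148, and for neurons and the co-culture -0.0051, 0.268 and 0.17. Arrays of unequal number were not correlated for comparison, and the labels name no pairing. Whether equal numbers are paired in any of the groups is therefore not settled.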

Additional observations from a re-analysis of the deposited data

How the results depend on the processing

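Of 18 alternatives, 9 left out an array. Over 36 calls of single members, 575 recomputed values kept direction and side of the threshold, 49 lost the call and 0 reversed. The remaining values are missing because the member was not tested in that alternative. Over the 111 comparisons of single members that were not called, 37 recomputed values gained a call. The count of members higher in the co-culture than in precursors, reported as 1, was 0 without the level filter and 0 with the replicate block, 2 with array weights and 2 with a variance trend, and 0 to 1 with an array left out. The filter at the 75th percentile left 8 members. Of these, 1 lay above precursors in neurons and 6 below, where 78% of all tested genes passed. In the co-culture 6 lay above neurons and 1 below, where 75.7% of all tested genes passed. The counts are smaller because fewer members were tested, while the share of members that passed was larger than in the main fit. With an array left out, 6 to 10 members lay above precursors in neurons and 10 to 12 below, and 10 to 13 lay above neurons in the co-culture and 3 to 9 below; the counts were 3 without co-culture replicate 1 and 10 and 9 without neuron replicate 2. The cause was not tested. With the replicate block, 7 members lay above precursors in neurons and 12 below, and Col25a1 (adjusted p = 0.0176) and Col2a1 (0.0226) passed while Col11a1 did not (0.0509). The block changed no other member's call besides that of Itga8 (0.0666). Deposited values of 15 of 49 tested members (30.6%) were identical in at least 2 arrays of a group, against 18% of tested genes. In 1 of the 49, Lama5, all 3 values of a group were equal, as in 268 of 13012 tested genes, which leaves that group without spread. A tie of 2 arrays need not make the spread small, and the tied co-culture group of Lamb1 had an SD of 0.178.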

Other observations

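Without the level filter, 2 dim members passed between neurons and precursors that the filter had left out. Lama2, the laminin alpha chain of muscle and of myelinating cells, was at 6.77, 6.78 and 6.83 in neurons, 6.55, 6.30 and 6.41 in precursors and 6.57, 6.67 and 6.36 in the co-culture, higher in neurons by 0.37 on the log2 scale (adjusted p = 0.00696, limma) and with no overlap between the separate cultures. Itga4, a receptor subunit for fibronectin and VCAM1 on migrating cells, was at 6.15, 6.10 and 6.11 in neurons, 6.49, 6.25 and 6.41 in precursors and 6.34, 6.25 and 6.29 in the co-culture, a difference of -0.26 (adjusted p = 0.00872). All these values lie near or below the array medians. In the co-culture against neurons, Lama2 (adjusted p = 0.0445), Itgb2l (0.0492) and Itgbl1 (0.0212) passed without the filter.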
